A study of Mus musculus with 12 samples.

Results

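The genes described here encode the receptor for glial cell line-derived neurotrophic factor (GDNF), its ligand and the transcription factors that GDNF is known to switch on in male germline stem cells. They are 9 of the 21859 genes in the expression table, chosen by symbol: the co-receptors *Gfra1* and *Gfra2*, the receptor kinase *Ret*, the ligand *Gdnf*, and the transcription factor genes *Etv5*, *Etv4*, *Bcl6b*, *Lhx1* and *Pou3f1*. RNA was measured in 12 libraries of sorted GFRa1+/KIT- spermatogonia, of which 5 came from control and 7 from cryptorchid testes. Cryptorchidism was induced in mice of 8 to 10 weeks by surgery on 1 side, which moved the left testis into the abdomen, and the right testis of the same mice gave the control cells. Testes were taken 10 days later. The labels give the genotype as WT, and the methods of the study give the sorted mice as carriers of a GFRa1-EGFP reporter. Control tissue was digested for 9 min at 32°C and cryptorchid tissue at 37°C, so the condition and the digestion temperature cannot be told apart. The labels do not say which libraries share a mouse, and *P*-values measure the spread between these libraries.

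GDNF is secreted by somatic cells of the testis, mainly Sertoli and peritubular myoid cells. It binds GFRA1 on undifferentiated spermatogonia, and the complex activates the kinase RET, which signals through SRC family kinases, PI3K and AKT, and RAS and ERK. In cultured spermatogonial stem cells this input maintains self-renewal and raises *Etv5*, *Bcl6b*, *Lhx1* and *Pou3f1*, while ETV4 and ETV5 are related ETS factors of the PEA3 group that act downstream of RET in several tissues.

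ETS factors bind DNA around a GGAA core. RefSeq promoter windows of 300 bases on GRCm38.p6, from 250 bases before to 50 after a start site, were matched for 4 of the 9 genes. The windows of *Gfra1*, *Etv5* and *Lhx1* are shown because these genes are the receptor and a pair of factors placed downstream of it, and they differ in how many cores they hold. All run 5′ to 3′ along the minus strand, and capitals mark GGAA or its reverse complement TTCC.
*Gfra1*, chr19:58455349-58455648: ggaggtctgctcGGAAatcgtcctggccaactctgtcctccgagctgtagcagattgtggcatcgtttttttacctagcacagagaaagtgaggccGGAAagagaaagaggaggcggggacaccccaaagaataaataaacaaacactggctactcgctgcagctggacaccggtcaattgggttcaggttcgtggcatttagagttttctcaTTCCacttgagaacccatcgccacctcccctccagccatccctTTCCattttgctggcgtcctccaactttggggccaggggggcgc
*Etv5*, chr16:22439521-22439820: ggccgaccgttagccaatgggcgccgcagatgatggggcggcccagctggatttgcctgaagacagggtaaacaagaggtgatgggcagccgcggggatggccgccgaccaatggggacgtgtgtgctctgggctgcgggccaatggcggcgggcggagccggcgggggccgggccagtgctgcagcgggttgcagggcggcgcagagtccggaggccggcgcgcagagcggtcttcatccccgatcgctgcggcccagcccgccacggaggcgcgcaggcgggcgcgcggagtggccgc
*Lhx1*, chr11:84525485-84525784: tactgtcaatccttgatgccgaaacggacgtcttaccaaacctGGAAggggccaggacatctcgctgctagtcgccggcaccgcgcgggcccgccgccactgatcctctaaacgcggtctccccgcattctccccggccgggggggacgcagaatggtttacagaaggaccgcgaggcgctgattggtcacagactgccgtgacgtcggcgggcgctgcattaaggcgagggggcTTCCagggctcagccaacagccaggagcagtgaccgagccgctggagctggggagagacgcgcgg
The *Gfra1* window held 4 cores, 1 of them within the longer motif CCGGAA at position -156 from the start site. The *Lhx1* window held 2 cores. This *Etv5* window held 0 cores and 3 copies of the GC box GGGCGG on either strand, and a second *Etv5* window further into the gene held 6 cores. Of 32851 mouse promoter windows, 96.0% hold GGAA on either strand, 14.9% hold CCGGAA and 35.7% hold GGGCGG. The overlap of CCGGAA with GGAA is complete, and these matches describe letters and not bound sites.

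Reads counted on genes numbered 4511730 to 24345368 in the control libraries (median 7603202) and 3306771 to 20027902 in the cryptorchid libraries (median 4611830). The libraries form a pair of sets by replicate number. Reads on genes were 74.5% to 94.0% of all reads in the set of replicates 1 to 3 and 94.8% to 99.9% in the set of replicates 4 and above. All 15 listed markers of undifferentiated spermatogonia had reads in every library, and *Zbtb16* (PLZF) ranged from 7.49 to 9.05 log2 RPM in control and from 7.42 to 9.07 in cryptorchid libraries. *Kit*, absent from the surface of the sorted cells, had RNA at 3.67 to 5.31 and 4.22 to 5.74 log2 RPM. Replicate 3 of both groups stood apart in the balance of long and short genes, which is described with *Gfra1*.

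Of the 9 genes, 8 passed the limit on low values (log2 of the mean RPM above -1) and were tested. Only *Etv4* passed the study's thresholds of a 2-fold change and an unadjusted *P*-value of 0.05, and it was lower in cryptorchid spermatogonia. That is 1 of 8, or 12.5%, against 5.92% of the 16932 genes tested (603 higher, 3.56%, and 399 lower, 2.36%). Under quantile normalization the split over all genes turned to 457 higher and 542 lower. No tested member had groups that did not overlap, against 0.839% of all genes. After Benjamini-Hochberg adjustment over all genes tested, 0 members passed in limma, where adjusted *P*-values ran from 0.469 to 0.989, and 2 of all genes (0.0118%) did. Of the 8, *Etv4* alone had an unadjusted limma *P*-value under 0.05, as did 9.48% of all genes, and an exact rank sum test gave 0 members under 0.05, against 9.63% of all genes.

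**Figure D1:**
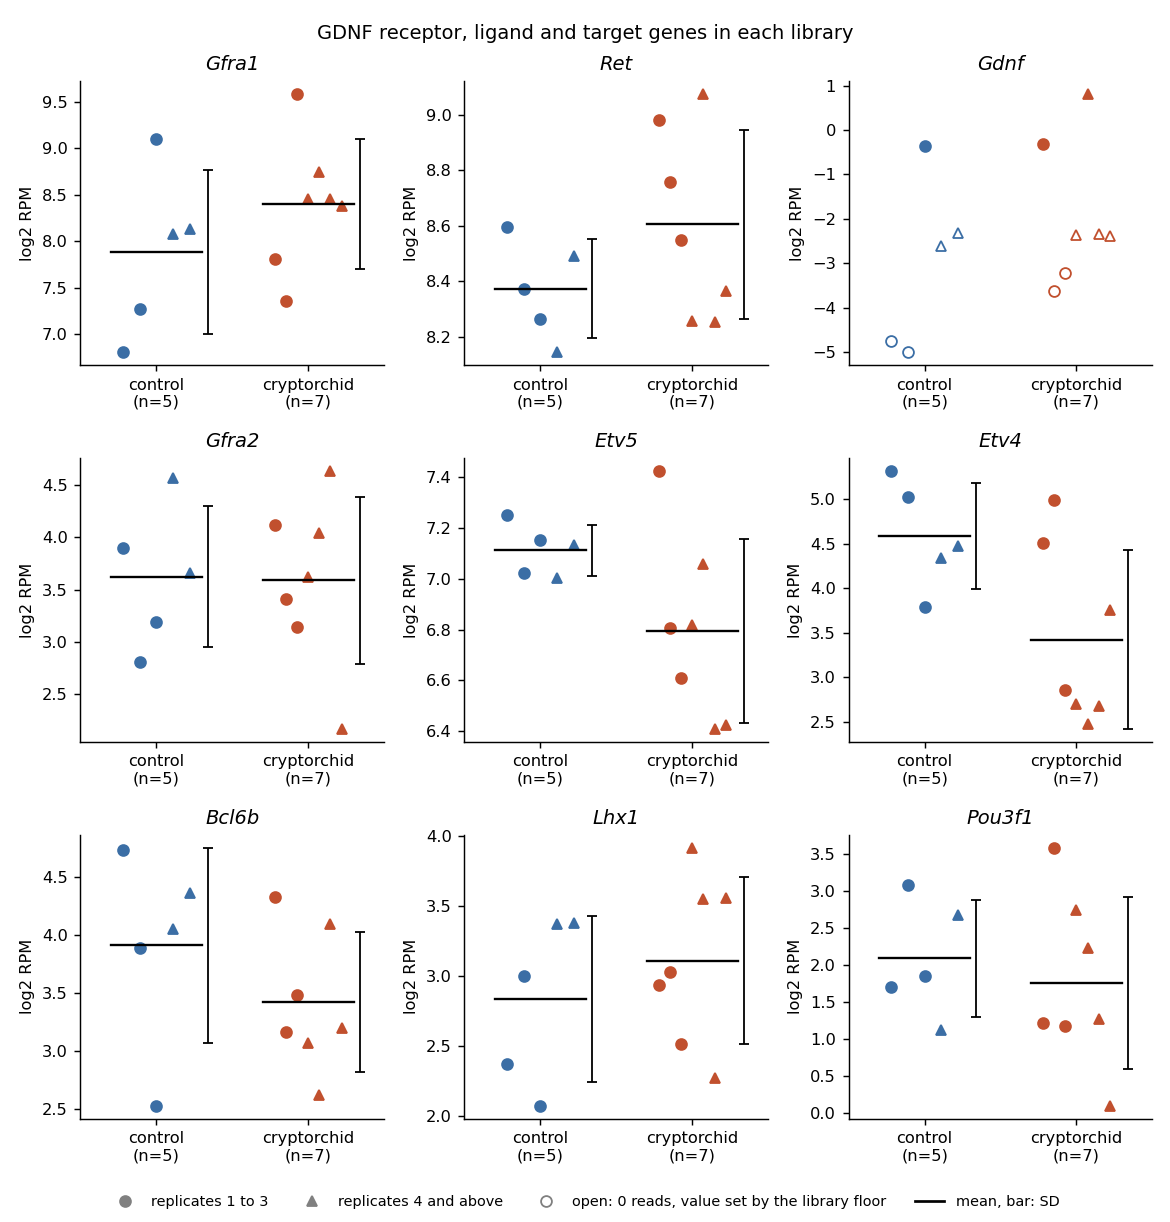
Level of the 9 genes in log2 RPM (vertical axes, separate for each gene) in each control (n = 5, blue) and cryptorchid (n = 7, red) library, with the group mean as a line and the SD as a bar. Circles are replicates 1 to 3 and triangles replicates 4 and above, and open symbols are libraries with 0 reads. In *Etv4*, 5 of the 7 cryptorchid libraries lie below every control library, and in *Gdnf* 9 of the 12 libraries have 0 reads.

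The receptor genes were the most abundant of the 9. On a scale of log2 RPM per kb of exon, averaged over all libraries, *Ret* stood at a level of 5.75 and *Gfra1* at 5.73, and each exceeded the other in 6 of 12 libraries. *Etv5* followed at 4.89, below *Gfra1* in 9 of 12 libraries. Then came *Etv4* at 2.27, *Gfra2* at 1.78, *Bcl6b* at 1.73, *Lhx1* at 0.97 and *Pou3f1* at -0.05. The step from *Etv5* to *Etv4* was the clear break in this order, with *Etv5* higher by 2.62 ± 0.90 (SD) in 12 of 12 libraries. *Etv4* and *Gfra2* (7 of 12), and *Gfra2* and *Bcl6b* (6 of 12), could not be ordered beyond their spread. Between the co-receptors, *Gfra1* exceeded *Gfra2* by 3.95 ± 1.12 log2 units per kb in 12 of 12 libraries. All libraries were sorted on EGFP driven by *Gfra1*, so the sort acts on its place in this order. Whether reads in introns were counted is not stated, and this order assumes that exon reads alone were.

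*Gfra1* encodes the GPI-anchored co-receptor that binds GDNF (chr19:58235604-58455909, minus strand, GRCm38). Its level in control replicates 1 to 5 was 6.80, 7.27, 9.10, 8.08 and 8.13 log2 RPM. The cryptorchid libraries ran from 7.36 through a median of 8.46 to 9.59 log2 RPM. The groups overlapped, the highest value in each was replicate 3, and 5 of 7 cryptorchid libraries lay above the control median. The cryptorchid mean was 0.52 log2 units higher (SE 0.40, fold 1.43, 95% interval 0.80 to 2.57), a difference within the spread between libraries (limma adjusted *P*=0.718, exact rank sum *P*=0.268). As the cells were gated on EGFP driven by this gene, the sort acts on the *Gfra1* level of both groups. Exons of the antisense gene *Gm16277* overlap *Gfra1*, and as the counting strand is not stated the reads of the pair cannot be told apart.

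*Ret* encodes the tyrosine kinase of the receptor (chr6:118151745-118197718, minus strand). In control replicates 1 to 5 it was measured at 8.60, 8.37, 8.26, 8.14 and 8.49 log2 RPM. The cryptorchid values had a minimum of 8.25, a median of 8.55 and a maximum of 9.08 log2 RPM. The groups overlapped, with 3 of 7 cryptorchid libraries above every control. The difference of 0.23 log2 units (SE 0.25, fold 1.17, 95% interval 0.82 to 1.69) did not pass (limma adjusted *P*=0.803, exact rank sum *P*=0.432). *Ret* was among the steadier genes, as its SD within groups of 0.287 log2 units was at percentile 3.8 of the 500 genes nearest in level, whose median SD was 0.578.

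*Gfra2* encodes the co-receptor that prefers neurturin (chr14:70890120-70979838, plus strand). Its control values were 3.89, 2.81, 3.19, 4.56 and 3.66 log2 RPM. Cryptorchid libraries spanned 2.17 to 4.63 log2 RPM around a median of 3.62. The lowest and the highest of the 12 values were both cryptorchid. The log2 difference was -0.03 (SE 0.47, 95% interval -1.02 to 0.95, limma adjusted *P*=0.989), so the interval reaches a 2-fold decrease and falls just short of a 2-fold increase.

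*Gdnf*, the ligand, was hardly present in these germ cells (chr15:7810846-7837575, plus strand). It had 0 reads in 4 of 5 control libraries and in 5 of 7 cryptorchid libraries. The remaining libraries were control replicate 3 with 8 reads, cryptorchid replicate 1 with 18 and cryptorchid replicate 5 with 6. The gene fell under the limit on low values, so it was not tested and no fold is given. A library with 0 reads allows a count of up to 3 reads by counting error alone. PCR copies were not marked, so counting error is the least error of these read numbers. Between replicates, the chi-square of reads per degree of freedom was 12.8 to 253, where sampling noise alone gives 1. Markers of the cells that make GDNF were low. Summed over 9 Sertoli genes they reached 19.2 to 73.3 RPM in control and 17.3 to 59.4 RPM in cryptorchid libraries. Of these genes 0 of 8 tested were called, beside 5.92% of all genes. *Wt1* and *Gata4* were the Sertoli genes with control means of 3.14 and 2.92 log2 RPM, *Sox9* stood at 0.92, and *Amh* was under the limit.

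*Etv5* encodes the ETS factor needed for lasting stem cell self-renewal in the testis (chr16:22381309-22439719, minus strand). Control replicates 1 to 5 gave 7.25, 7.02, 7.15, 7.005 and 7.13 log2 RPM. Cryptorchid libraries ran from 6.41 through 6.81 to 7.43 log2 RPM. Of these, 5 of 7 lay below every control library, while cryptorchid replicate 1 was the highest of all 12. The cryptorchid mean was 0.32 log2 units below control (log2 difference -0.32, SE 0.23, fold 0.80, 95% interval 0.57 to 1.12), which did not pass (limma adjusted *P*=0.698, exact rank sum *P*=0.106). The controls lay close together, with an SD of 0.101 log2 units against 0.362 in the cryptorchid libraries.

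*Etv4*, the related PEA3 factor gene, fell (chr11:101769742-101785371, minus strand). Its control values were 5.32, 5.02, 3.79, 4.34 and 4.47 log2 RPM. The cryptorchid values were 4.51, 4.995, 2.86, 2.70, 2.48, 2.67 and 3.75 log2 RPM. Cryptorchid replicates 3 to 7 lay below every control, and replicates 1 and 2 lay within the control range. *Etv4* was 2.24-fold lower (log2 difference -1.16, SE 0.49, 95% interval -2.19 to -0.14). It passed the unadjusted threshold but not the adjustment over all genes (limma adjusted *P*=0.469), and the exact two-sided rank sum test gave *P*=0.0732, where the smallest *P*-value that 5 against 7 libraries allow is 0.00253. The values rest on 100 to 972 reads per control library and 19 to 507 per cryptorchid library. In bulk RNA, fewer expressing cells and less RNA per cell cannot be told apart.

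The fall of *Etv4* rested more on the libraries numbered 4 and above. In replicates 4 and above alone the log2 difference was -1.50 and called (limma adjusted *P*=0.215), in a fit that called 4.16% of all genes lower. In replicates 1 to 3 alone it was -0.59 and not called, in a fit that called 2.04% lower. The difference between the sets was not tested. With a term for the set the log2 difference was -1.02 and called (limma adjusted *P*=0.404), as were 3.75% of all genes in that direction. The call was lost on leaving out control replicate 1 (log2 difference -0.98) or 2 (-1.05), or cryptorchid replicate 4 (-1.04), 5 (-1.01) or 6 (-1.04), and it remained in the other 7 of 12 such fits. Spermatid markers fell in the same comparison. Of 7, 3 were called lower (*Prm1* -2.40, *Prm2* -3.73 and *Odf1* -2.70 log2 units), beside 2.36% of all genes. The call of *Odf1* was lost by the exact rank sum test (*P*=0.0732). Summed over the 7 genes, spermatid markers ranged from 490 to 2666 RPM in control and from 14.5 to 1789 RPM in cryptorchid libraries. *Prm1*, *Prm2* and *Odf1* had reads in all 12 libraries. Their part in the *Etv4* result was not tested.

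**Figure D2:**
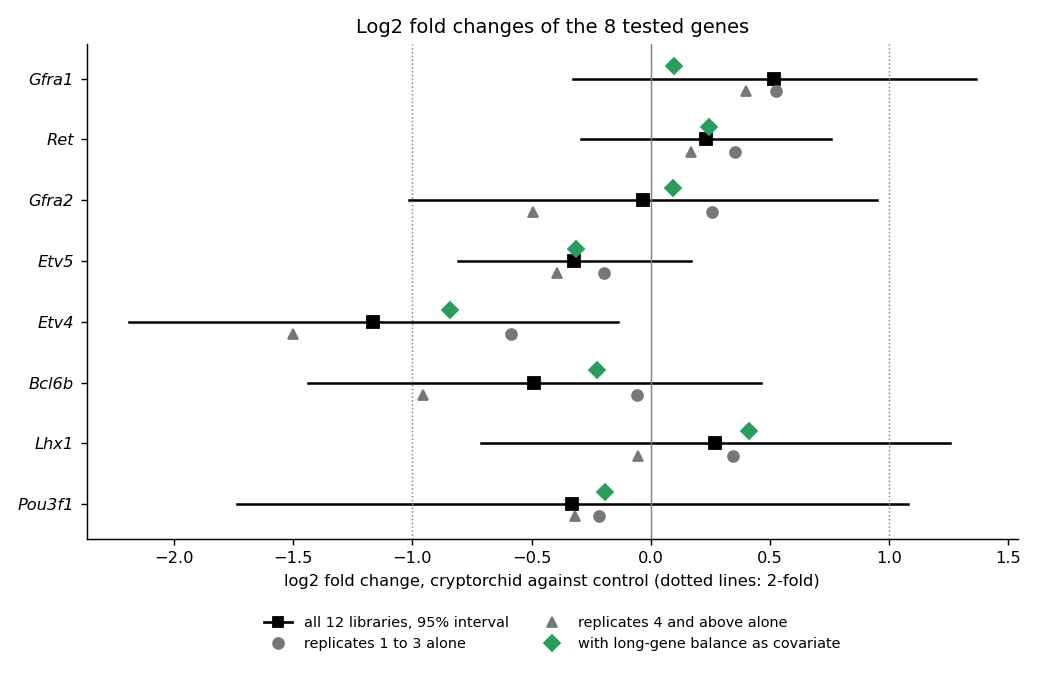
Log2 fold change of cryptorchid against control (horizontal axis) for the 8 tested genes, with the 95% interval of the limma fit over all 12 libraries as a line. Grey circles and triangles give replicates 1 to 3 and replicates 4 and above alone, and green diamonds the fit with the long-gene balance as a covariate. The interval of *Etv4* (-2.19 to -0.14) is the only one of the 8 that leaves out 0.

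*Bcl6b*, a transcriptional repressor gene raised by GDNF in culture (chr11:70224128-70229798, minus strand), had control values of 4.73, 3.88, 2.53, 4.05 and 4.36 log2 RPM. In cryptorchid libraries it ran from 2.62 through 3.20 to 4.33 log2 RPM. The groups overlapped, with control replicate 3 the lowest of all 12. The log2 difference was -0.49 (SE 0.45, 95% interval -1.44 to 0.46, limma adjusted *P*=0.766), and -0.83 without control replicate 3, also not called.

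*Lhx1*, a LIM homeobox gene (chr11:84518284-84525535, minus strand), stood at 2.37, 2.999, 2.07, 3.37 and 3.38 log2 RPM in the controls. In cryptorchid libraries it ran from 2.27 through 3.03 to 3.92 log2 RPM. In both groups the spread was close to 0.6 log2 units (SD 0.593 and 0.597). The log2 difference was 0.27 (SE 0.47, 95% interval -0.71 to 1.26, limma adjusted *P*=0.890).

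*Pou3f1*, a POU homeobox gene (chr4:124656807-124660655, plus strand), was the least abundant tested member. Its control values were 1.70, 3.08, 1.86, 1.13 and 2.68 log2 RPM, from 12 to 244 reads. Cryptorchid libraries ran from 0.10 through 1.27 to 3.59 log2 RPM, from 5 to 134 reads. The lowest and the highest of the 12 values were both cryptorchid. The log2 difference of -0.33 (SE 0.67, 95% interval -1.74 to 1.08, limma adjusted *P*=0.907) leaves changes of over 2-fold in both directions within the interval. Its exons overlap the antisense gene *Gm2164*, which makes the count uncertain.

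The members moved with each other in only 1 of 28 pairs. *Gfra1* and *Etv4* ran in opposite directions over the 12 libraries, with a Pearson r of -0.815 (permutation *P*=0.00128, adjusted over 28 pairs 0.0358) and a Spearman rho of -0.853 (permutation *P*=0.00084, adjusted 0.0235). Without the 2 libraries farthest from the median of *Gfra1*, r was -0.762. Within replicates 1 to 3 r was -0.982 and within replicates 4 and above it was -0.908, each over 6 libraries. The share of all genes with an r to *Gfra1* as strong as that of *Etv4* was not counted, so this pair has no background. Over all 12 libraries *Gfra1* did not pair with its partner *Ret*, where r was -0.138, or with *Etv5*, where r was -0.383. For *Ret* the sets differed in sign, with r of -0.320 in replicates 1 to 3 and 0.688 in replicates 4 and above. For *Etv5* r was -0.435 and -0.190 in these sets.

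*Gfra1* also followed a property of the libraries. The long-gene balance is the median deviation from the mean over libraries of the 10% of genes with the longest genomic span (149 kb and above) minus that of the 10% with the shortest (5.59 kb and below), on the log2 scale. It was -0.84, -0.83, 1.37, -0.83 and -0.41 in control replicates 1 to 5, and -0.15, -0.56, 1.43, 0.07, 0.53, -0.17 and 0.08 in cryptorchid replicates 1 to 7. *Gfra1* is itself 1 of the 1124 genes in the long end. The value in replicate 3 of both groups was far above the highest of the other libraries, 0.53. *Gfra1*, with a span of 220 kb, had a Pearson r of 0.889 with the balance (permutation *P*=8.0e-05, adjusted over 8 genes 0.00064), a Spearman rho of 0.895 (permutation *P*=0.00024, adjusted 0.00192), and r of 0.803 without the 2 libraries farthest from the median. Within the sets r was 0.984 and 0.938. Of all genes above a log2 mean of 3, 0.683% had an r as high. The 3 genes nearest to *Gfra1* in pattern were *Syn3* (r 0.981), *Ubr4* (0.974) and *Nbeal1* (0.972) among 11412 genes over 12 libraries, with spans of 444, 137 and 158 kb.

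*Etv4*, with a span of 15.6 kb, had r of -0.646 with the balance (permutation *P*=0.0240, adjusted over 8 genes 0.0641) and rho of -0.699 (permutation *P*=0.0147, adjusted 0.0588). Without the 2 farthest libraries r was -0.828. Within the sets it was -0.948 and -0.768. *Bcl6b* was close to *Etv4* in this, with r of -0.649 (permutation *P*=0.0224, adjusted 0.0641) and rho of -0.636 (permutation *P*=0.0302, adjusted 0.0806). Its r was -0.673 without the 2 farthest libraries, and -0.642 and -0.849 within the sets. For *Etv4* and *Bcl6b* the share of all genes with an r as strong was not counted. The r of *Ret* was 0.0657 and that of *Etv5* was -0.195. The balance averaged -0.31 (SD 0.96) in control and 0.18 (SD 0.65) in cryptorchid libraries. A fit with it as a covariate can therefore also take up part of a difference between the conditions. When the balance was a covariate, the log2 difference of *Gfra1* was 0.10 (limma adjusted *P*=0.881). In that fit *Etv4* stood at -0.84 and was no longer called (limma adjusted *P*=0.383), against 2.1% of all genes called lower, and *Bcl6b* stood at -0.22. Without replicate 3 of both groups, *Etv4* was called at -1.27 (limma adjusted *P*=0.316), as were 2.88% of all genes in that direction, and *Gfra1* stood at 0.63 (limma adjusted *P*=0.407). Both alternatives were chosen after the data were seen. *Ret* was nearest in pattern to *Zfp14* (r 0.813), *Gas8* (0.807) and *Gbp3* (0.796), and *Etv5* to *Sh3bp4* (0.910), *Scpep1* (0.874) and *Impdh1* (0.873).

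**Figure D3:**
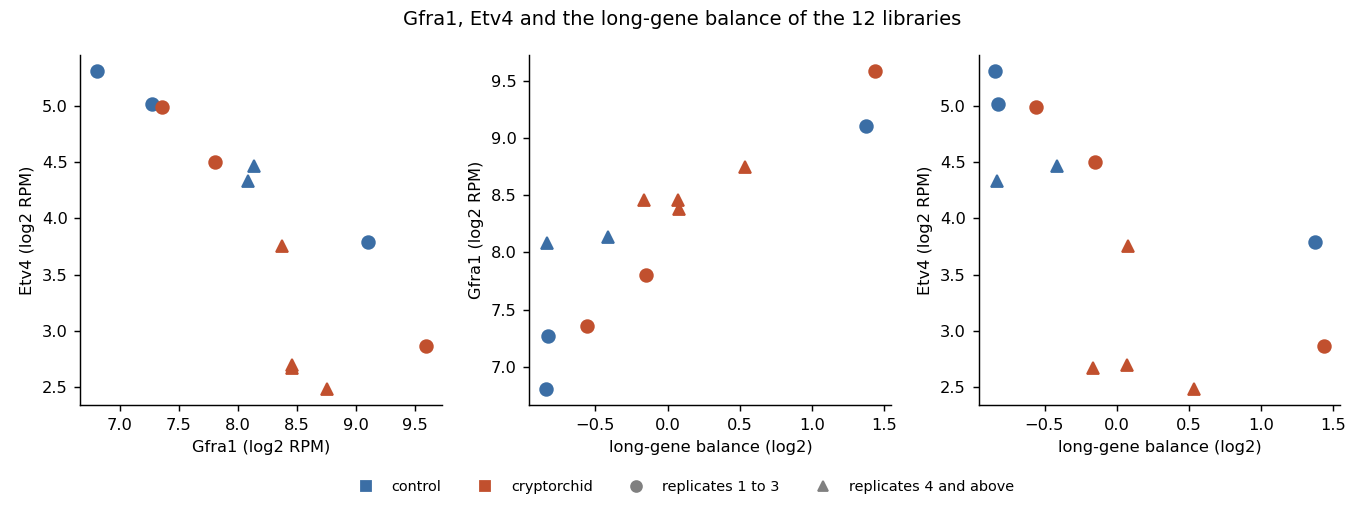
*Etv4* against *Gfra1* (left), *Gfra1* against the long-gene balance (middle) and *Etv4* against the balance (right), in log2 RPM and log2 units, with 1 point per library, control in blue and cryptorchid in red. Circles are replicates 1 to 3 and triangles replicates 4 and above. *Etv4* was lower where *Gfra1* was higher (r -0.815), and replicate 3 of both groups lies far right in the balance, at 1.37 and 1.43.

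The wider pathway was read from lists of its parts, beside 5.92% of all genes called over all 12 libraries. Of the GDNF family ligands and co-receptors, 7 of 11 listed genes were tested, 0 were called, and the median log2 difference was 0.23, beside 0.10 over all genes. *Ncam1*, an alternative GDNF receptor, had a log2 difference of 0.64 (exact rank sum *P*=0.268) and *Nrtn*, which encodes neurturin, one of 1.10 (exact rank sum *P*=0.202). Of 30 RET signal transducers, 0 were called over all 12 libraries, with a median of 0.15. Unadjusted limma *P*-values under 0.05, all at less than 2-fold, were found for 2 higher and 3 lower genes of the 30, beside 9.48% of all genes. They included *Pik3ca* (log2 difference 0.82), which encodes a PI3K catalytic subunit. The lower genes were the adaptors *Shc1* (-0.64) and *Gab2* (-0.77) and the MEK gene *Map2k2* (-0.76). *Map2k2* was called lower with array weights (log2 difference -1.09, limma adjusted *P*=0.0232), in a fit that called 4.15% of all genes lower. It was also called in replicates 4 and above alone (-1.30), against -0.16 in replicates 1 to 3 alone. *Pik3ca* was called in replicates 4 and above alone (1.07, beside 3.75% of all genes called higher), against 0.42 in replicates 1 to 3 alone. With the long-gene balance as a covariate, *Nrtn* (1.91) and the PEA3 gene *Etv1* (2.06) were called, beside 4.88% of all genes called higher.

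Of the feedback inhibitors of ERK signalling, which are switched on by ERK itself, 10 of 11 were tested. Of these 1 was called, beside 5.92% of all genes. *Dusp4*, an ERK phosphatase gene, ran from 2.48 to 4.53 log2 RPM in control and from 0.52 through 2.83 to 3.37 in cryptorchid libraries. Its log2 difference was -1.20 (SE 0.55, limma adjusted *P*=0.508, exact rank sum *P*=0.0303), and 3 of 7 cryptorchid libraries were below every control. The call was lost without control replicate 1, 3, 4 or 5 or cryptorchid replicate 2, 4 or 6, with log2 differences of -1.49 to -0.88 over all fits that left out a library. The median of the 10 was -0.04, and *Spred1* (0.38) and *Spred3* (0.96) did not pass. Of the 3 PEA3 factor genes, *Etv4* was the called one, *Etv5* stood at -0.32 and *Etv1* at 1.36 (exact rank sum *P*=0.343).

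In the list of other genes reported to respond to GDNF or Etv5 in cultured spermatogonia, 4 of 10 were called and all 4 were higher, beside 3.56% of all genes called higher, with a median log2 difference of 1.02 (1.11 in replicates 1 to 3 alone and 0.69 in replicates 4 and above alone). *Tspan8*, a tetraspanin gene, was measured at 4.99, 3.99, 4.04, 5.51 and 5.40 log2 RPM in control replicates 1 to 5. The cryptorchid libraries ran from 5.19 through 5.87 to 7.31 log2 RPM, and 5 of 7 lay above every control. *Tspan8* rose by 1.25 log2 units (SE 0.39, limma adjusted *P*=0.301, exact rank sum *P*=0.0303), and was called in 28 of 28 alternatives. *Cxcr4*, which encodes the receptor of the niche chemokine CXCL12, ran from -2.52 to 1.13 log2 RPM in control and from 0.81 through 1.84 to 2.75 in cryptorchid libraries. It rose by 2.42 log2 units (SE 0.80, limma adjusted *P*=0.359, exact rank sum *P*=0.0101) on few reads, 2 to 28 per control library and 6 to 80 per cryptorchid library. In replicates 1 to 3 alone the log2 difference of *Cxcr4* was 3.40 and called, in a fit that called 1.7% of all genes higher. In replicates 4 and above alone it was 0.96 and the call was lost.

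*Tec*, a cytoplasmic tyrosine kinase gene, ran from 0.36 to 4.18 log2 RPM in control and from 3.29 through 4.79 to 5.70 in cryptorchid libraries. It rose by 1.55 log2 units (SE 0.59, limma adjusted *P*=0.425, exact rank sum *P*=0.0303). Without control replicate 2, its lowest library, the log2 difference was 0.88 and the call was lost. *T*, the Brachyury gene, ran from 1.77 to 3.42 log2 RPM in control and from 2.15 through 3.94 to 4.81 in cryptorchid libraries. It rose by 1.19 log2 units (SE 0.52, limma adjusted *P*=0.483, exact rank sum *P*=0.0480), and kept its call in 17 of 28 alternatives. That call was lost without control replicate 1 or 2 or cryptorchid replicate 3, 4, 5 or 6, with log2 differences of 0.98 to 1.45 over the fits that left out a library. The other 6 of the list did not pass, among them *Nanos2* (log2 difference -0.35), *Id4* (0.91) and *Egr2* (0.52). The list and its genes are no independent evidence of direction, as they were picked with earlier results of these data known.

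The marker lists are read beside 3.56% of all genes called higher and 2.36% called lower. Of these lists, 0 of 15 genes of undifferentiated spermatogonia were called. Among 6 genes of differentiating spermatogonia, *Stra8* rose by 1.09 log2 units and *Dnmt3b* fell by 1.20, and *Kit* was not called (0.45, limma adjusted *P*=0.725). The spermatocyte gene *Mybl1* rose by 1.26 log2 units, 1 of 8 called. Log2 differences of these 8 ran from -1.61 to 1.26 with a median of -0.0015, and 4 were above 0. In replicates 1 to 3 alone that of *Mybl1* was 0.27 and not called. Of 4 tested genes of peritubular myoid cells, the smooth muscle gene *Actg2* fell by 2.46 and was the 1 called, while 2 had log2 differences above 0. The median of these 4 was -0.29, with -1.51 in replicates 1 to 3 alone and 1.18 in replicates 4 and above alone. The endothelial genes *Cdh5* and *Vwf* rose by 2.01 and 1.80, 2 of 4 called. Both endothelial calls were lost by the exact rank sum test (*P*=0.0732 each) and in replicates 4 and above alone (1.482 and 1.141). *Stra8* fell just short of the 2-fold limit without control replicate 2 or 3 or cryptorchid replicate 4 or 5 (range 0.96 to 1.24). The calls of *Mybl1* (without control replicate 5 or any of cryptorchid replicates 1 and 4 to 7, range 0.85 to 1.46) and *Vwf* (without control replicate 2, 3 or 4 or cryptorchid replicate 1, range 1.25 to 2.25) were lost in fits that left out 1 library. Summed over 5 myoid genes, levels ranged from 24.8 to 56.6 RPM in control and from 3.22 to 44.1 RPM in cryptorchid libraries, and the defining gene *Acta2* had 0 reads in 3 libraries of each group. The 4 endothelial genes summed to 10.0 to 28.4 RPM in control and 18.4 to 44.3 RPM in cryptorchid libraries, and *Pecam1* had reads in every one. No Sertoli, Leydig or macrophage gene was called. The part of these cells in the values of *Tec*, *Cxcr4* and *Dusp4* was not tested.

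**Figure D4:**
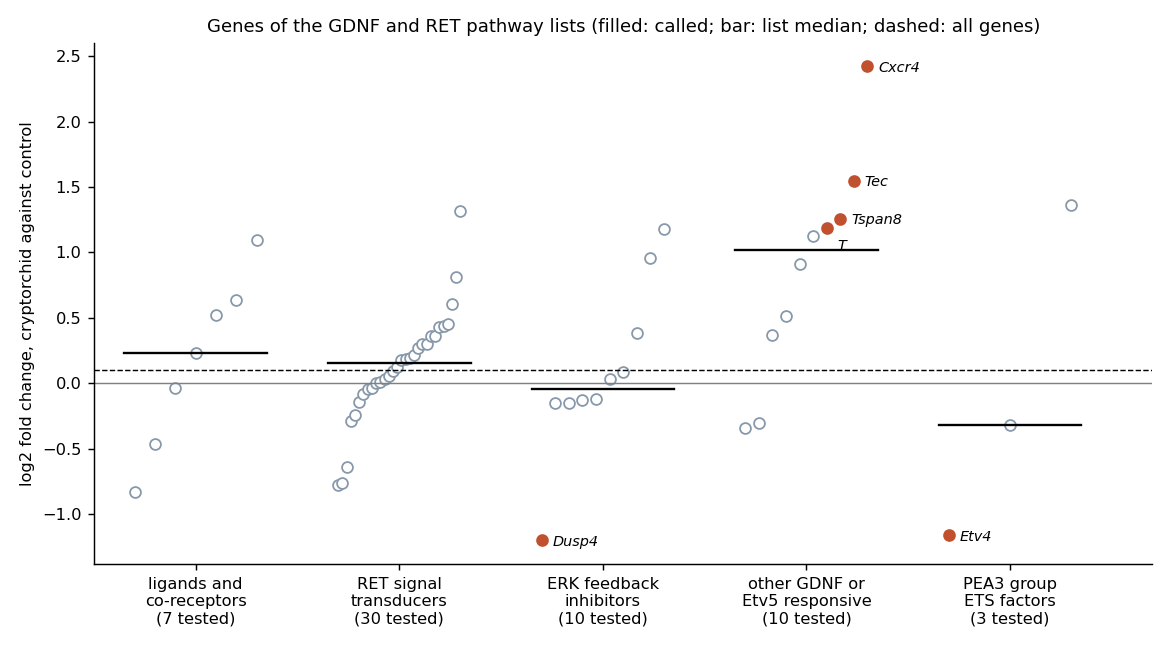
Log2 fold change (vertical axis) of the tested genes of the 5 pathway lists, with 1 point per gene, filled and named where called at 2-fold and an unadjusted *P*-value of 0.05. Bars are list medians and the dashed line is the median of all 16932 genes, 0.10. The 4 called genes of the GDNF or Etv5 responsive list lie above 1, and *Dusp4* and *Etv4* below -1.

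**Figure D5:**
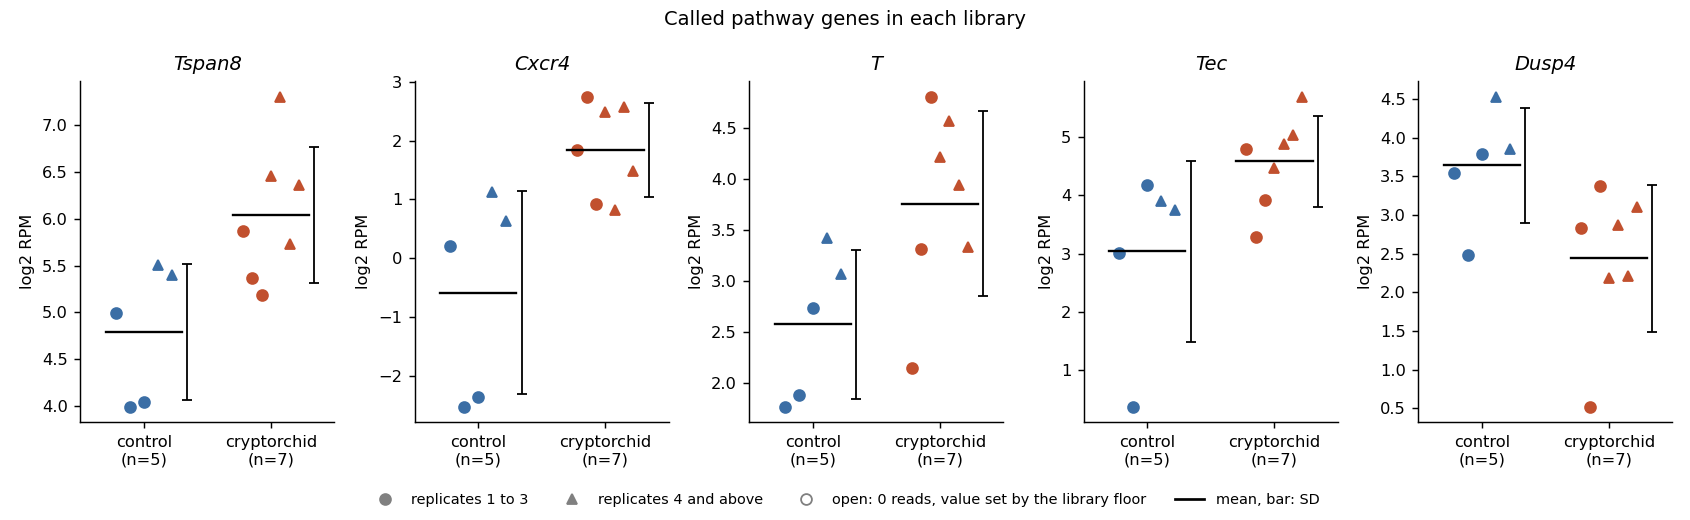
Level in log2 RPM (vertical axes, separate for each gene) of the 5 called pathway genes other than *Etv4*, in each control (n = 5, blue) and cryptorchid (n = 7, red) library, with mean and SD, circles for replicates 1 to 3 and triangles for replicates 4 and above. *Tspan8*, *Cxcr4*, *T* and *Tec* are higher and *Dusp4* lower in cryptorchid libraries, with overlap between the groups in each.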

How the data were processed

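RNA of about 1000 sorted cells per sample was extracted and cDNA from RNA equal to about 200 cells was made by Smart-seq2, a method with no identifiers of single molecules. Per the methods and the submitters' processing notes, reads went through FastQC 0.11.8, Trim Galore 0.6.6 and HISAT2 2.1.0 (build mm10, GRCm38), and SeqMonk counted them over protein-coding genes. What the authors deposited is log2 RPM, read numbers normalised to the library total on a log2 scale, for 21859 genes. The authors' own test was edgeR on counts, and limma on the deposited log2 values took its place here. No column belonged to no sample (0 columns).

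Libraries were grouped by the labels. The members were found by symbol, and members, gene lists and rules were chosen with earlier results of these data known. Differences of log2 RPM, without a further pseudocount, were tested by limma (version 3.58.1, R 4.3.3, eBayes with a mean-variance trend, tested on simulated data). The 16932 genes whose mean RPM exceeded -1 on the log2 scale entered the fit. A call needed a 2-fold change and an unadjusted *P*-value of 0.05, the study's thresholds, and adjusted *P*-values are Benjamini-Hochberg over all genes tested. The exact rank sum test ran over all 792 ways to draw 5 of the 12 libraries. Reads behind values were recovered from the steps between low values, with 100% of values under 1000 reads within 0.05 of a whole number, and voom on these reads called 785 genes higher and 497 lower. Over 31 pairs of replicates, the chi-square of reads per degree of freedom was 12.8 to 253, where sampling noise alone gives 1. Each library counted as 1 sample. Correlations used 100000 permutations. Gene positions and exon lengths are of GENCODE vM21, and 98.4% of 11413 genes above log2 3 had a span for the long-gene balance. Python 3.11.15 with numpy 2.4.6, pandas 2.3.3, scipy 1.17.1 and matplotlib 3.10.9 was used.

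The text names all members, the called genes and the 3 smallest *P*-values of each pathway list, and defining and called markers, except for an item of the RET transducer list that is not reported here. *Shc1*, *Gab2*, *Nanos2*, *Id4*, *Egr2* and *Amh* were named after their values were seen. The alternatives were median centring, quantile normalization, pseudocounts of 1 and 0.1 RPM, no filter and a filter at 2, array weights, voom on the recovered reads, a common floor, ratios of mean RPM, the replicate number as a block, the library sets, and each library left out in turn. The long-gene balance and leaving out replicate 3 of both groups were added after the data were seen. ChIP-seq of the study was not used here.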

Additional observations from a re-analysis of the deposited data

How the results depend on the processing

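Over 29 alternatives each, *Gfra1*, *Ret*, *Etv5* and *Bcl6b* kept their direction and stayed uncalled. *Etv4* stayed lower in all 29 alternatives. It lost its call with the long-gene balance (log2 difference -0.84) and in replicates 1 to 3 alone (-0.59). The call was also lost with voom (-0.94) and by the exact rank sum test (-1.16), while leaving out single libraries gave -1.43 to -0.98. *Gfra2*, near 0, changed sign with the long-gene balance (0.094), with the replicate block (0.042), in replicates 1 to 3 alone (0.26) and with voom (0.14), and ran from -0.24 to 0.20 over the libraries left out. *Lhx1* changed sign in replicates 4 and above alone (-0.052) and *Pou3f1* with the replicate block (0.10). The median of the RET transducers was 0.0064 with the long-gene balance. Beside 603 genes higher and 399 lower, a filter at 2 gave 385 higher, replicates 1 to 3 alone 287 higher, array weights 703 lower, the set term 635 lower, replicates 4 and above alone 705 lower, and leaving out single libraries 501 to 750 higher and 280 to 572 lower. The causes were not tested, except that the filter and the smaller sets hold fewer genes or libraries. Among the other named genes, signs changed for *Spred1* in replicates 1 to 3 alone (-0.027), *Zbtb16* in replicates 4 and above alone (-0.18), *Sox9* with array weights (-0.35) and in replicates 4 and above alone (-0.81), and *Wt1* in replicates 1 to 3 alone (0.53) and with voom (0.32), and, with single libraries left out, for *Acta2* (-0.057 to 1.60), *Sox9* (-0.25 to 0.35), *Wt1* (-0.51 to 0.21) and *Zbtb16* (-0.011 to 0.39).

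With the replicate block, 778 genes were higher and 900 lower, and 949 passed the adjustment. *Etv4* stood at -1.08 (limma adjusted *P*=0.0940), *Gfra1* at 0.51 (limma adjusted *P*=0.0548) and *Ret* at 0.35 (limma adjusted *P*=0.107). Deviations of libraries with the same number correlated at 0.347, 0.363, 0.411, 0.250 and 0.0488 for numbers 1 to 5, and as number 5 was under 0.1 and the labels tie no libraries to a mouse, the numbers were not taken as a pairing, although 4 of 5 control libraries were nearest to their own number. The reads behind *Gdnf*, *Pou3f1* and *Cxcr4* limit what their levels can show.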
